A study of Mus musculus with 8 samples.

Results

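The genes *Sst*, *Cort*, *Npy*, *Vip*, *Cck*, *Crh*, *Crhbp*, *Tac1*, *Penk* and *Pdyn* encode neuropeptides of cortical interneurons and 1 protein that binds such a peptide. These 10 genes were taken by name from the 45706 genes in the deposited tables by a rule that used no measured value, although the names were chosen with earlier results of these data known. They were measured by RNA-seq of ribosome-bound mRNA from PV+ interneurons of the mouse primary somatosensory cortex (S1), in 4 samples of mice given CNO and 4 of mice given vehicle. All mice of both groups were PvalbFlp/+;Neurod6Cre/+ and received an AAV with the construct flox-fdio-HA-RPL10a-T2A-myc-hM3Dq, which was injected at postnatal day 1. Flp turns the construct on in PV+ cells, and Cre removes it from pyramidal cells that have expressed *Neurod6*. The virus carries the human synapsin promoter, which is active in neurons in general, so that the choice of cell rests on the recombinases. The construct encodes an HA-tagged ribosomal protein, RPL10A, through which ribosomes are pulled down, and the receptor hM3Dq, which excites a neuron in the presence of its ligand CNO. The mice had 5 injections of 1 mg/kg CNO over about 48 h, or of vehicle on the same schedule, in mice of postnatal day 42 to 70. Every sample pooled tissue of 4 brains, so that the spread between samples is a spread between pools. The comparison asks whether a sustained rise in PV+ interneuron activity alters the ribosome-bound mRNA of these genes. No untagged control tissue or input RNA was analysed here, so a level in the pulldown does not by itself place a gene in PV+ cells.

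Neuropeptides are cut from larger precursor proteins in dense-core vesicles and act on G-protein-coupled receptors, usually more slowly and over a wider range than GABA. In the neocortex they divide interneurons into classes. Somatostatin (*Sst*) and vasoactive intestinal peptide (*Vip*) each name a class, neuropeptide Y (*Npy*) is made by several classes, and cholecystokinin (*Cck*) marks a class of basket cells and is also made by pyramidal cells. Cortistatin (*Cort*) resembles somatostatin and binds the same receptors. Corticotropin-releasing hormone (*Crh*) acts in the stress response, and the secreted protein encoded by *Crhbp* binds it and keeps it from its receptors. *Tac1* gives substance P and neurokinin A, *Penk* the enkephalins and *Pdyn* the dynorphins. The latter 3 genes are also strongly expressed by projection neurons of the striatum, which lies beneath the cortex.

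The sequences before the start sites of these genes are shown because the factor CREB, which neuronal activity engages, binds the palindrome TGACGTCA and its shorter part TGACG. The RefSeq promoter table for GRCm38.p6 held 8 of the 10 genes, without *Crh* and *Penk*. In the 250 bases before the start, searched on both strands, TGACGTCA was present in *Sst* alone, from base -48 to base -41 counted from the start. This motif was present in 508 of all 32851 promoters in the table (1.55%). The part TGACG, which overlaps the palindrome, was present in 6 of the 8 genes and in 5836 of all promoters (17.8%). TGANTCA, the motif of FOS and JUN dimers, was present in 0 of the 8 genes and in 2217 of all promoters (6.75%). A match describes the letters only and says nothing of binding. The windows below run 5′ to 3′ along the strand of the gene, with the match in capitals and CGTCA standing for TGACG on the opposite strand. They are those of *Sst* at chr16:23890874-23890903 (minus strand), *Cort* at chr4:149126764-149126793 (minus), *Cck* at chr9:121495724-121495753 (minus), *Vip* at chr10:5639127-5639156 (plus), *Crhbp* at chr13:95444878-95444907 (minus) and *Tac1* at chr6:7555006-7555035 (plus).
Sst: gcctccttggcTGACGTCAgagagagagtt
Cort: ctccggcttgtgCGTCAccgcgtgagtgtg
Cck: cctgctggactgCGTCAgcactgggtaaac
Vip: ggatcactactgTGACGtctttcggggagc
Crhbp: gagctggaccctCGTCAttgccacgcattt
Tac1: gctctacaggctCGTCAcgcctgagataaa
In the GENCODE annotation the windows of *Cort*, *Cck* and *Vip* lie outside any gene. Those of *Sst*, *Crhbp* and *Tac1* lie in untranslated exon sequence, because GENCODE starts these genes 114, 93 and 182 bases upstream of RefSeq. *Tac1* held a further match from base -197 to base -193.

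The estimated counts summed to between 44064161 and 49413273 per sample, so that 3 counts, taken as the lowest level this depth can show, correspond to 0.0607 to 0.0681 CPM (counts scaled to a common library size). This floor covers counting error only. All 10 genes were among the 17495 that passed the filter on low counts. *Pvalb*, the defining gene of the captured cells, had 820 to 1160 TPM (transcript abundance corrected for length and scaled to the same total in each sample) in 7 samples and 300.1 TPM in vehicle replicate 1. *Rpl10a*, whose tagged copy the virus delivers, ranged from 301 to 1295 TPM and was also lowest there. The mean of 16 PV+ interneuron markers was likewise lowest in vehicle replicate 1, at 6.06 log2 CPM against 7.01 to 7.84 in the other 7 samples. The pyramidal cell gene *Slc17a7* was present at 331 to 547 TPM, and *Ppp1r1b*, a gene of striatal projection neurons, at 78.7 to 209 TPM. No marker on the lists for other interneuron classes, pyramidal cells, striatal neurons, glia or blood vessels was at 0 in the whole series, so the pulldown held RNA of genes typical of other cells. *Fos*, a marker of neuronal activity, differed between CNO and vehicle by 1.93 on the log2 scale (standard error, SE, 0.21), at an adjusted p of 0.0520 by edgeR's quasi-likelihood test. In bulk RNA, fewer cells of a type and less RNA per cell cannot be told apart.

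Per transcript length, the most abundant of the 10 genes was *Cck*, with a mean of 171 ± 22.4 TPM (SD, n = 8). *Sst* followed at 141 ± 22.8 TPM and *Npy* at 126 ± 14.7 TPM. These 3 genes together made up 60.2% to 72.5% of the summed TPM of the 10 genes, which lay between 552 and 730 TPM. The middle of the order held *Crhbp* at 71.5 ± 22.0 TPM, *Tac1* at 57.6 ± 16.2 TPM and *Penk* at 50.6 ± 18.1 TPM. *Vip* had 20.8 ± 2.85 TPM, *Cort* 15.0 ± 7.47 TPM, *Crh* 7.97 ± 1.42 TPM and *Pdyn* 7.36 ± 0.948 TPM (SD, n = 8 for each). *Pvalb* stood above every one of the 10 genes in every sample. Neighbours in this order were compared within samples by a two-sided exact sign-flip permutation test of the log2 TPM difference, whose smallest possible p is 0.0078 before adjustment over the 9 pairs. *Cck* was above *Sst* (7 of 8 samples, adjusted p = 0.0469), *Npy* above *Crhbp* (8 of 8 samples, adjusted p = 0.0352) and *Penk* above *Vip* (8 of 8 samples, adjusted p = 0.0352) in exact tests. The geometric mean, over the 8 samples, of the TPM ratio within a sample was 1.85 for *Npy* to *Crhbp* and 2.31 for *Penk* to *Vip*. The other 6 pairs of neighbours did not pass an adjusted p of 0.05, from *Crhbp* and *Tac1* (exact permutation test, adjusted p = 0.0527) to *Tac1* and *Penk* (adjusted p = 0.469). *Tac1* was above *Penk* in 4 of 8 samples.

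**Figure D1:**
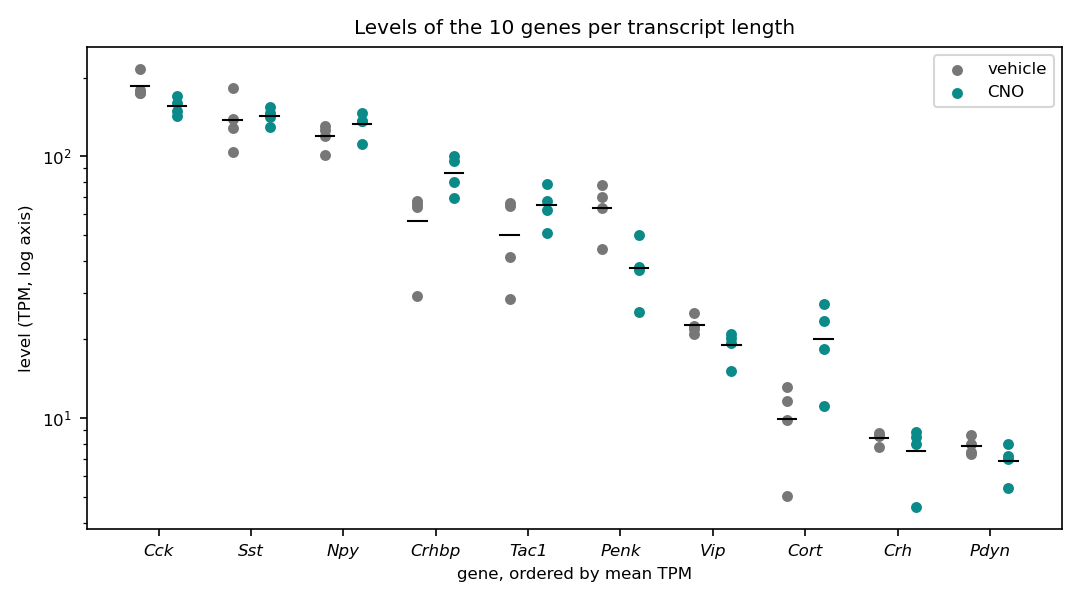
Levels of the 10 genes in TPM on a log axis, ordered by the mean over 8 samples, with 1 point for each vehicle (grey) and CNO (teal) sample and a bar at the mean of each group. *Cck*, *Sst* and *Npy* lie above 100 TPM in all 8 samples, and *Crh* and *Pdyn* lie below 10 TPM in all 8.

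The order depends on transcript length. By CPM, which is not corrected for length, *Crhbp* came first and *Cort* last, and only 2 of the 10 genes kept their rank. Relative to *Pvalb* in the same sample, *Crhbp* had 6.11% to 9.38% of the *Pvalb* TPM in 7 samples and 9.74% in vehicle replicate 1. *Cort* had 1.04% to 2.41% in the 7 samples and 1.68% in vehicle replicate 1. *Cck*, by contrast, had 12.8% to 21.8% in the 7 samples and 59.6% in vehicle replicate 1, and *Vip* had 1.31% to 2.48% and 8.38%. Thus in the library with the least *Pvalb*, *Crhbp* and *Cort* were low together with *Pvalb*, whereas *Cck* and *Vip* were not.

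Between CNO and vehicle, 5 of the 10 genes were higher and 5 were lower. The median log2 fold change was 0.0044 for the 10 genes (-0.056 without vehicle replicate 1) and 0.0014 for all genes tested. A gene was called where the adjusted p was under 0.05, the change over 1.5-fold and the mean TPM over 1. By edgeR's quasi-likelihood test, adjusted by Benjamini-Hochberg over all genes, 0 of the 10 were called, and 0 of all 17495 genes (0.0%). The adjusted p of the 10 genes ranged from 0.817 to 0.885. The likelihood ratio test with robust dispersion also called 0 of the 10, against 0.0686% of all genes tested, and DESeq2's Wald test 0 of the 10, against 0.0572%. The paper's methods name edgeR's robust dispersion with these cut-offs, and the paper reported genes changed in both directions. At an unadjusted p under 0.05 there were 3 of the 10 genes, *Cort*, *Crhbp* and *Penk*, against 4.09% of all genes tested. The same 3 genes had an unadjusted p under 0.05 in the likelihood ratio test, against 4.81% of all genes, and in DESeq2's test, against 4.77%. *Cort* and *Crhbp* were higher with CNO, a direction with 1.44% of all genes at this unadjusted p, and *Penk* was lower, a direction with 2.65%. Within groups the 10 genes varied with a median SD of 0.30 on the log2 scale, and the 15173 genes above 1 TPM with one of 0.21.

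**Figure D2:**
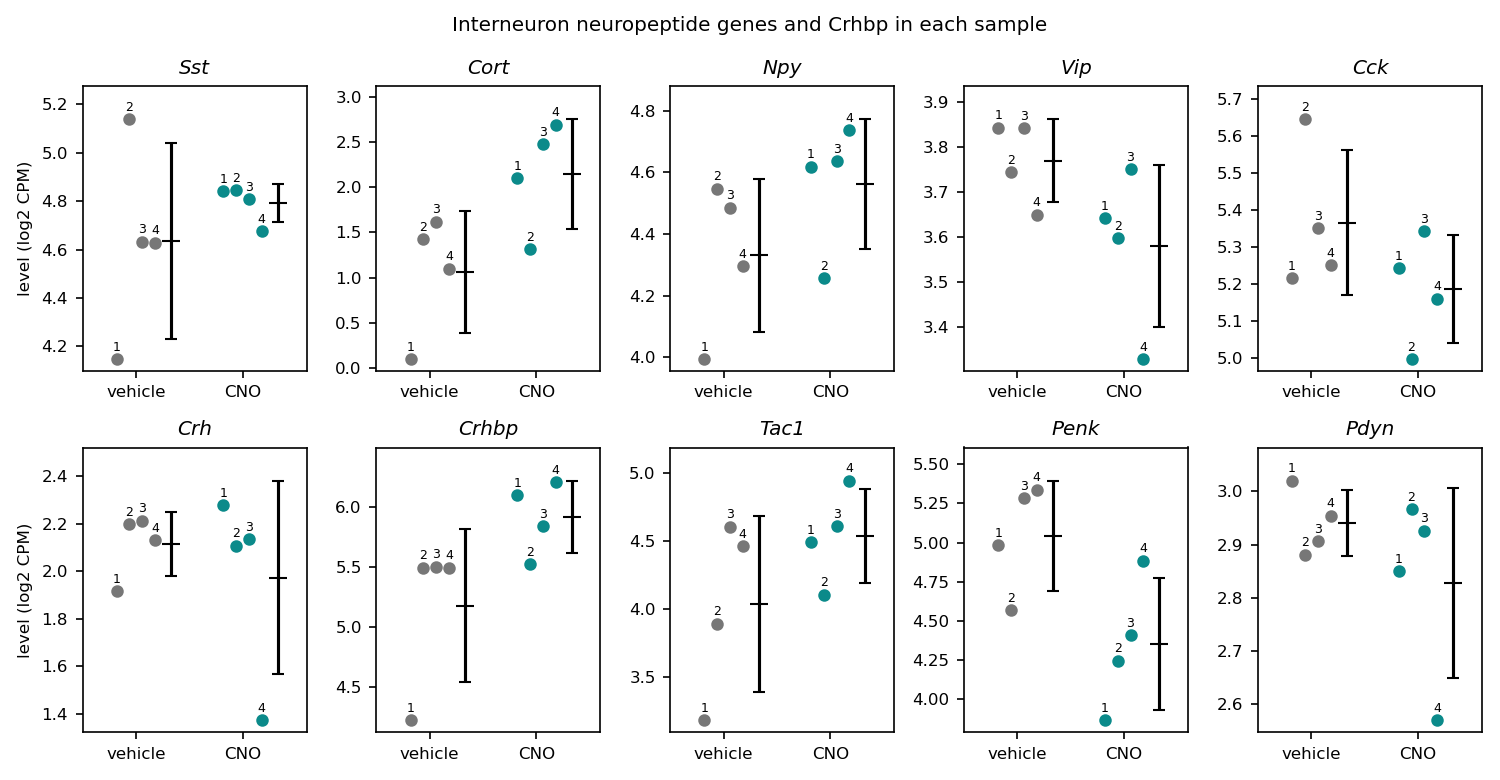
Level of each of the 10 genes in log2 CPM in each sample, numbered by replicate, with the mean and SD of each group (n = 4) beside the points. *Crhbp* is the only panel without overlap between groups on this scale, and vehicle replicate 1 is the lowest point for *Sst*, *Cort*, *Npy*, *Crhbp* and *Tac1*. The vertical axes differ between panels.

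The somatostatin pair comprised *Sst* (chromosome 16 of GRCm38, 23889573 to 23890958) and *Cort* (chromosome 4, 149125034 to 149126763). *Cort* was at 4.26, 2.45, 5.55 and 6.44 CPM in CNO replicates 1 to 4 and at 1.03, 2.65, 3.03 and 2.10 CPM in vehicle replicates 1 to 4. CNO replicate 2 lay among the vehicle samples, and the other 3 CNO samples lay above all vehicle samples. The mean was 4.67 ± 1.73 CPM with CNO and 2.20 ± 0.871 CPM with vehicle (SD, n = 4 each), a 2.12-fold difference with a 95% interval of 1.25 to 3.60. This log2 fold change of 1.08 (SE 0.35) was the largest of the 10 genes in size, and the quasi-likelihood test gave it an unadjusted p of 0.0102 and an adjusted p of 0.817. The two-sided exact permutation test over the 70 assignments of 4 samples to each group gave p = 0.0857, where 0.0286 is the smallest p this design allows. Without vehicle replicate 1, the library with few PV+ interneuron markers, the log2 fold change was 0.84 (unadjusted p = 0.0143, adjusted p = 1.00). With the mean of the PV+ interneuron markers as a covariate it was 0.59 (unadjusted p = 0.0213, adjusted p = 1.00).

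*Sst* was at 28.6, 28.7, 28.0 and 25.5 CPM with CNO and at 17.7, 35.2, 24.8 and 24.7 CPM with vehicle. The CNO samples lay close together, within the range of the vehicle samples, of which replicate 1 was lowest and replicate 2 highest. The log2 fold change was 0.12 (SE 0.17), with a 95% interval from -0.26 to 0.49. Its sign turned without vehicle replicate 1, to -0.029, and also with the mean of the PV+ interneuron markers as a covariate, to -0.0082. Among 7 tested genes of SST interneurons other than *Sst*, 0 had an unadjusted p under 0.05, against 4.09% of all genes. Their median log2 fold change was -0.051, and -0.11 without vehicle replicate 1. The summed level of the list was 64.2 to 77.4 TPM with CNO and 75.7 to 92.4 TPM with vehicle. *Calb1* alone (named after its values were seen) had a mean of 51.6 TPM in this sum. In mean log2 CPM the groups overlapped, at 2.69 to 2.89 with CNO and 2.75 to 2.96 with vehicle. *Sst* and *Cort* thus differed in their values, and whether the responses of these genes differ from each other was not tested.

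*Npy* (chromosome 6, 49822710 to 49829507) was at 24.5, 19.1, 24.8 and 26.6 CPM with CNO and at 15.9, 23.3, 22.4 and 19.6 CPM with vehicle. As for *Cort*, CNO replicate 2 lay among the vehicle samples and the other 3 CNO samples above all of them. The difference was 1.17-fold, with a 95% interval of 0.942 to 1.45 (unadjusted p = 0.138 from the quasi-likelihood test). Its log2 fold change was 0.23 in all samples, 0.12 without vehicle replicate 1 and 0.047 with the PV+ interneuron marker mean as a covariate.

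*Vip* (chromosome 10, 5639218 to 5647617) was at 12.4, 12.1, 13.4 and 10.0 CPM with CNO and at 14.3, 13.4, 14.3 and 12.5 CPM with vehicle. Here 3 of the 4 CNO samples lay below the lowest vehicle sample, replicate 4 at 12.5 CPM. The difference was 0.880-fold, with a 95% interval of 0.740 to 1.05. The 8 genes on the list of VIP interneuron markers had a median log2 fold change of -0.13, which was 0.0011 without vehicle replicate 1, against -0.18 for *Vip* itself. Among the 8 genes *Cxcl14* alone (named after its values were seen) had an unadjusted p under 0.05, against 4.09% of all genes. These 8 genes summed to 46.5 to 60.8 TPM with CNO and to 52.9 to 76.9 TPM with vehicle. *Vip* had a within-group SD of 0.14 on the log2 scale, the second lowest of the 10 genes after *Pdyn*.

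*Cck* (chromosome 9, 121489824 to 121495694) was at 37.8, 31.9, 40.5 and 35.7 CPM with CNO and at 37.1, 50.0, 40.7 and 38.0 CPM with vehicle. The groups overlapped, with vehicle replicate 2 at the top and CNO replicate 2 at the bottom. The difference was 0.880-fold, with a 95% interval of 0.736 to 1.05. TPM takes transcript length into account and lacks the library scaling factors (TMM) that the CPM values here carry. In TPM, *Cck* was at 143 to 169 with CNO and at 174 to 216 with vehicle. On this scale the groups did not overlap. This held in TPM for 3 of the 10 genes, *Cck*, *Crhbp* and *Vip*, and for 3.17% of all genes tested, and for *Vip* the nearest samples of the groups both stood at 20.9 TPM. In CPM without the TMM factors the log2 fold change was -0.24 for both *Cck* and *Vip*, against -0.18 for each with them. The median of all genes tested was then -0.051, against 0.0014 with them. By limma on log2(TPM + 1) the log2 fold change of *Cck* was -0.26 (unadjusted p = 0.0259, adjusted p = 0.749). In that test 4 of the 10 genes, *Cck*, *Cort*, *Crhbp* and *Penk*, had an unadjusted p under 0.05, against 5.37% of all genes. The 12 pyramidal cell markers come from a cell type that also makes *Cck*. Of them, 1 had an unadjusted p under 0.05 in the quasi-likelihood test, against 4.09% of all genes. This was *Nrn1* (lower, named after its values were seen). Their median log2 fold change was -0.13 (-0.074 without vehicle replicate 1), and their summed level was 820 to 1104 TPM with CNO and 1022 to 1274 TPM with vehicle. The 7 LAMP5 and SNCG interneuron markers, whose cells also make *Cck* and *Npy*, had a median log2 fold change of -0.15 (-0.11 without vehicle replicate 1). Of these, 2 were lower at an unadjusted p under 0.05, against 2.65% of all genes tested. They were *Lamp5* and *Reln*, named after their values were seen. The summed level of the 7 markers was 299 to 398 TPM with CNO and 419 to 539 TPM with vehicle. *Lamp5* alone had a mean of 227 TPM in this sum. In the mean log2 CPM of the 7 markers the groups overlapped, at 3.67 to 4.25 with CNO and 3.85 to 4.30 with vehicle. The part of these cells in the *Cck* difference was not tested.

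*Crhbp* (chromosome 13, 95431371 to 95444924) was the only one of the 10 genes whose groups did not overlap in CPM, which held for 2.42% of all genes tested and, in the direction higher with CNO, for 0.789%. It was at 68.6, 46.1, 57.4 and 74.0 CPM with CNO and at 18.6, 45.1, 45.4 and 45.1 CPM with vehicle. The margin was small, since the lowest CNO sample (replicate 2) and the highest vehicle sample (replicate 3) stood at 5.53 and 5.51 on the log2 scale. The mean was 61.5 ± 12.4 CPM with CNO and 38.6 ± 13.3 CPM with vehicle (SD, n = 4 each), a 1.59-fold difference with a 95% interval of 1.08 to 2.36. The log2 fold change was 0.67 (SE 0.26), with an unadjusted p of 0.0240 and an adjusted p of 0.817 in edgeR's test. The exact permutation test gave p = 0.0286, the smallest that 4 samples against 4 allow.

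Part of this difference lay in vehicle replicate 1. Without it, the log2 fold change of *Crhbp* was 0.44 (unadjusted p = 0.00807, adjusted p = 0.9999), and the other 3 vehicle samples lay between 45.1 and 45.4 CPM. With the PV+ interneuron marker mean as a covariate, the log2 fold change was 0.30 (unadjusted p = 0.00178, adjusted p = 1.00). All 16 PV+ interneuron markers were higher with CNO. At an unadjusted p under 0.05 there was 1 of them (*Gad2*, named after its values were seen), against 1.44% of all genes. Their median log2 fold change was 0.40 in all samples and 0.17 without vehicle replicate 1, and their summed level was 5111 to 7977 TPM with CNO and 2594 to 6270 TPM with vehicle. The part of PV+ interneuron RNA content in the difference in *Crhbp* was not tested beyond these values.

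*Crh* (chromosome 3, 19693401 to 19695396), whose product CRHBP binds, was at 4.81, 4.27, 4.35 and 2.55 CPM with CNO and at 3.73, 4.55, 4.59 and 4.34 CPM with vehicle. A single sample, CNO replicate 4, lay well below the other 7, and the same sample was the highest of the 8 for *Crhbp*. The difference was 0.928-fold, with a 95% interval of 0.687 to 1.25. Its log2 fold change was -0.11 in all samples, 0.051 without CNO replicate 4 and -0.53 (unadjusted p = 0.0435) with the mean of the striatal markers as a covariate, an alternative added after seeing the data. Per length, *Crhbp* exceeded *Crh* in every sample, with group means of 86.4 and 7.49 TPM under CNO and 56.7 and 8.44 TPM under vehicle. The receptor gene *Crhr1* had 14.0 TPM on average and a log2 fold change of -0.21 (SE 0.15).

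*Tac1* (chromosome 6, 7554879 to 7565834) was at 22.4, 17.1, 24.3 and 30.7 CPM with CNO and at 9.01, 14.8, 24.3 and 22.0 CPM with vehicle. The groups overlapped, although the vehicle group held the 2 lowest samples and the CNO group the highest. The difference was 1.35-fold, with a 95% interval of 0.886 to 2.05 (unadjusted p = 0.146). The log2 fold change was 0.43 in all samples and 0.21 without vehicle replicate 1, and 0.053 with the PV+ interneuron marker mean as a covariate. With the striatal marker mean as a covariate, an alternative added after seeing the data, it was 0.66.

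*Penk* (chromosome 4, 4133531 to 4138819) was at 14.5, 18.9, 21.2 and 29.5 CPM with CNO and at 31.6, 23.7, 38.9 and 40.4 CPM with vehicle. Of the CNO samples 3 lay below all vehicle samples, and CNO replicate 4 lay above vehicle replicate 2. The mean was 21.0 ± 6.29 CPM with CNO and 33.6 ± 7.69 CPM with vehicle (SD, n = 4 each), a 0.625-fold difference with a 95% interval of 0.448 to 0.871. The log2 fold change was -0.68 (SE 0.22), with an unadjusted p of 0.0102 and an adjusted p of 0.817 in edgeR's test. The exact permutation test gave p = 0.0571. The likelihood ratio test with robust dispersion gave an adjusted p of 0.0519, the lowest of any of the 10 genes over the alternatives tried, which for *Penk* ranged up to 1.00. *Penk* overlaps the noncoding gene A830012C17Rik on the opposite strand, the library kit does not mark strand, and 10.9% of the 31-base stretches in *Penk* transcripts are shared with other genes. Its reads therefore could not be assigned with the certainty of the other members, of which only *Vip* shared any such stretches (0.41%).

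Markers of striatal projection neurons, which make *Penk*, were mostly lower with CNO as well, and 0 of them passed an adjusted p of 0.05. Of 11 markers 10 were tested, without *Penk* among them, and 7 were lower with CNO at an unadjusted p under 0.05 against 2.65% of all genes, among them *Ppp1r1b* (log2 fold change -0.54, SE 0.15). The 2 that were higher were *Drd1* (0.0097, SE 0.15) and *Rarb* (0.070, SE 0.16), named after their values were seen. The median log2 fold change of the 10 was -0.49 (-0.41 without vehicle replicate 1). The summed level of the list was 167 to 243 TPM with CNO and 267 to 397 TPM with vehicle, and none was at 0. *Ppp1r1b* alone had a mean of 130 TPM in this sum. In mean log2 CPM the groups overlapped, with CNO replicate 4 at 3.98 and vehicle replicate 2 at 3.60. The mean of these markers was lowest in CNO replicate 1 (2.97 log2 CPM), which was also the lowest sample for *Penk*, and highest in vehicle replicates 1 and 4 (4.19 and 4.17 log2 CPM). With this mean as a covariate, an alternative added after seeing the data, the log2 fold change of *Penk* was -0.13 (unadjusted p = 0.413). With the PV+ interneuron marker mean as a covariate it was -0.79, and without vehicle replicate 1 it was -0.71. *Tac1* and *Pdyn*, which these neurons also express, had log2 fold changes of 0.43 and -0.11 in all samples. With the striatal marker mean as a covariate these were 0.66 and -0.19. The part of striatal RNA in the *Penk* difference was not tested beyond these values, and the covariate is itself measured in the same libraries.

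**Figure D3:**
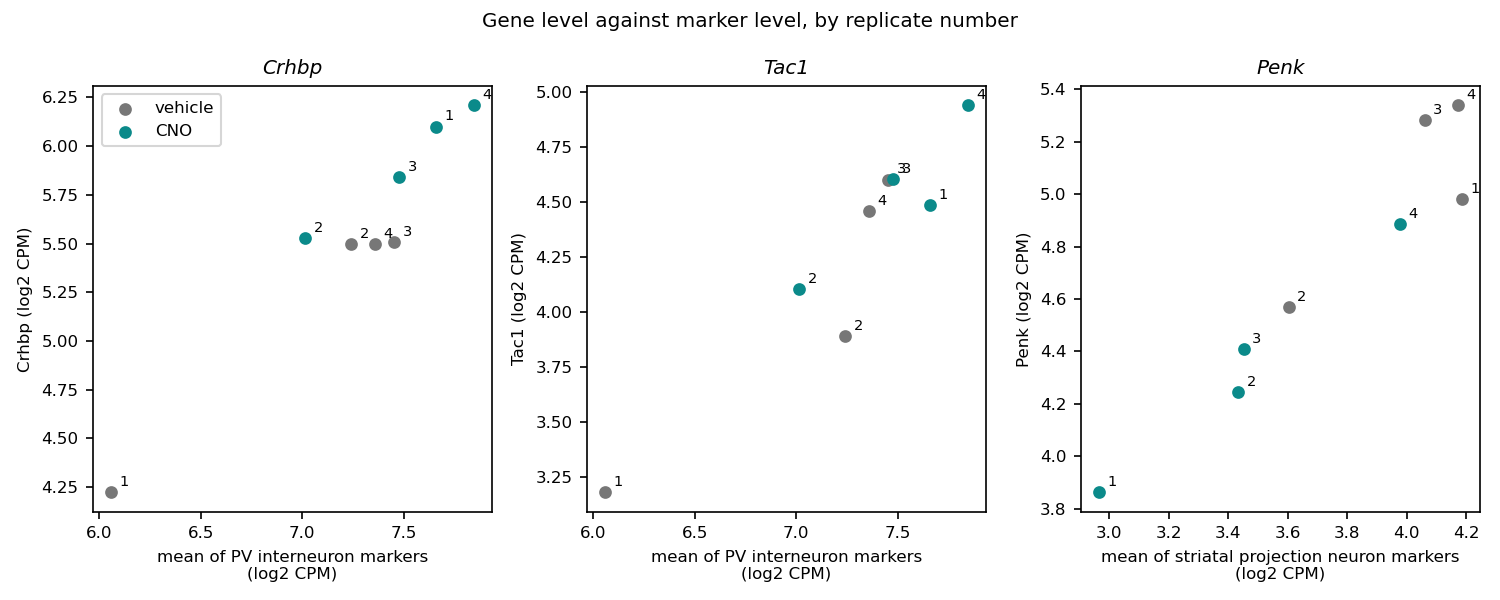
Level of *Crhbp* and *Tac1* against the mean of the PV+ interneuron markers, and of *Penk* against the mean of the striatal projection neuron markers, all in log2 CPM, with 1 point per sample numbered by replicate (vehicle grey, CNO teal). Vehicle replicate 1 stands alone at the lower left for *Crhbp* and *Tac1*, and CNO replicate 1 is lowest on both axes for *Penk*.

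*Pdyn* (chromosome 2, 129686565 to 129699844), the other opioid precursor, was at 7.16, 7.78, 7.56 and 5.89 CPM with CNO and at 8.07, 7.32, 7.46 and 7.71 CPM with vehicle. Apart from CNO replicate 4 the samples of both groups lay close together. Its difference was 0.929-fold, with a 95% interval of 0.770 to 1.12 (unadjusted p = 0.407), and its within-group SD of 0.13 on the log2 scale was the lowest of the 10 genes.

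**Figure D4:**
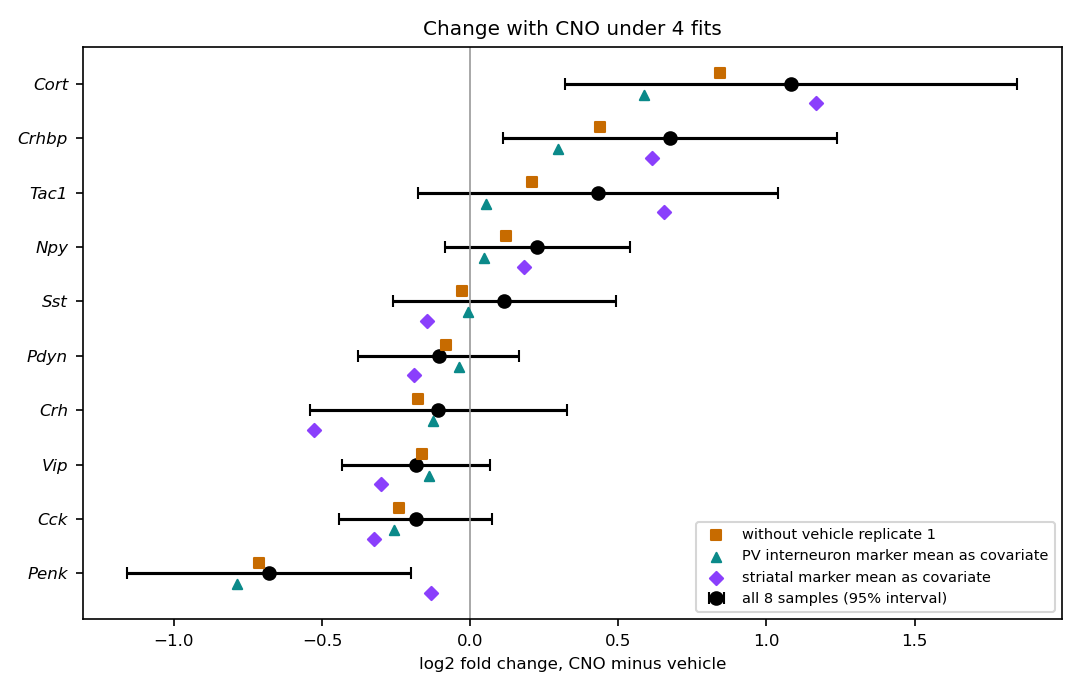
Log2 fold change of each of the 10 genes, CNO minus vehicle, in all 8 samples with its 95% interval (black), without vehicle replicate 1 (orange squares), with the PV+ interneuron marker mean as a covariate (teal triangles) and with the striatal marker mean as a covariate (purple diamonds). *Cort*, *Npy*, *Crhbp* and *Tac1* stay above 0 in all 4 fits, and *Vip*, *Cck*, *Crh*, *Penk* and *Pdyn* stay below 0. *Sst* alone changes sign. Of its own fits, *Penk* lies nearest to 0, at -0.13, with the striatal covariate.

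Across the 8 samples, the largest range was that of *Cort*, 6.05-fold between vehicle replicate 1 and CNO replicate 4, followed by *Crhbp* at 3.96-fold and *Tac1* at 3.39-fold between the same libraries. *Penk* ranged 2.78-fold, and the other 6 genes between 1.37-fold (*Pdyn*) and 1.99-fold (*Sst*). Vehicle replicate 1 was the lowest sample for 5 of the 10 genes (*Sst*, *Cort*, *Npy*, *Crhbp* and *Tac1*) and the highest for 2 (*Vip* and *Pdyn*). CNO replicate 4, which had the highest mean of the PV+ interneuron markers, was the highest sample for 4 genes (*Cort*, *Npy*, *Crhbp* and *Tac1*) and the lowest for 3 (*Vip*, *Crh* and *Pdyn*). Thus the same pair of libraries set both ends of *Cort*, *Npy*, *Crhbp* and *Tac1*, and the opposite ends of *Vip* and *Pdyn*. The part of the PV+ interneuron share of the RNA in these ranges was not tested.

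**Figure D5:**
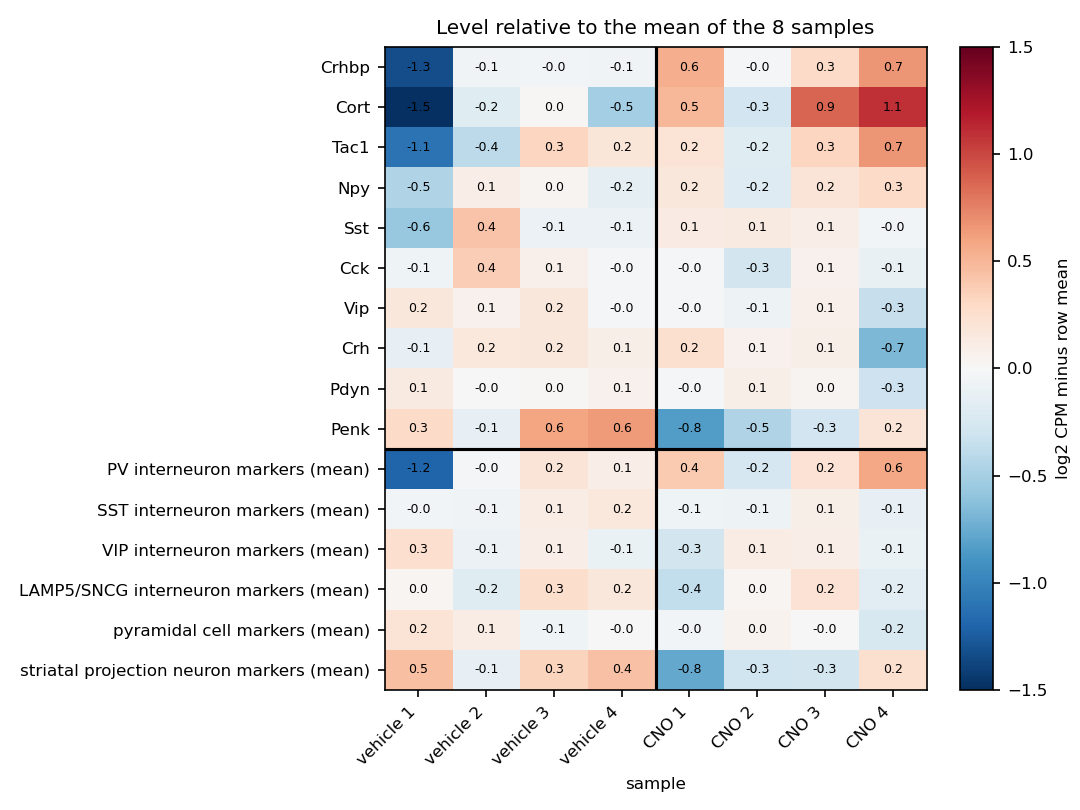
Log2 CPM of each of the 10 genes, and mean log2 CPM of 6 marker lists, in each sample relative to the mean of the 8 samples (blue lower, red higher). Vehicle replicate 1 is dark blue for *Crhbp*, *Cort*, *Tac1* and the PV+ interneuron markers, and CNO replicate 1 is blue for *Penk* and the striatal markers.

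For each of the 10 genes, the 3 other genes with the most similar profile were those with the smallest root mean square difference of log2 CPM over the 8 samples, after subtracting each gene's mean. For *Crhbp* these were *Gm13889* (0.066), *Ret* (0.088) and the PV+ interneuron marker *Gad1* (0.10), against an SD of *Crhbp* itself of 0.61 over the 8 samples. For *Tac1* they were *Tmem242* (0.11), *Aldh5a1* (0.11) and the PV+ interneuron marker *Kcnc2* (0.12), against an SD of 0.55. For *Penk* they were *Gm15379* (0.17), *Syndig1l* (0.22) and *Gpr6* (0.22), against an SD of 0.52, and the latter 2 genes stand on the list of striatal markers. *Cort* was nearest to *Gpnmb* (0.19), *Mybpc1* (0.22) and *Cox7a1* (0.24), against an SD of 0.83. These distances describe the 8 libraries, in which 1 library with few PV+ interneuron markers weighs on every gene that follows them.

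The other 6 genes varied less, so that a small distance says less. *Sst* was nearest to *Smim11*, *Rpp21* and *Amn*, at 0.076 to 0.11, and *Npy* to *Gbas*, *Psmg1* and *1700007K13Rik*, at 0.032 to 0.041. *Cck* was nearest to *Gstm4*, *Lipt2* and *Arhgap22*, at 0.059 to 0.080, and *Vip* to *Mpg*, *Suclg2* and *Trim13*, at 0.053 to 0.054. *Crh* was nearest to *Sun2*, *5930412G12Rik* and *Eef2kmt*, at 0.087 to 0.094, and *Pdyn* to *Phldb1*, *Sbno2* and *Pigh*, at 0.039 to 0.046. When vehicle replicate 1 was left out, 11 of the 30 genes named here stayed among the nearest. The cell type markers *Gad1*, *Kcnc2* and *Syndig1l* were not among these 11, whereas *Gpr6* was.

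The other precursors of secreted peptides on a list of 53 genes, which leaves out the granins, were mostly scarce. Of these, 16 passed the filter on low counts and 37 did not, and 9 of the latter were listed at 0 in all 8 samples. All 53 together summed to 75.3 to 107 TPM per sample, against the 552 to 730 TPM of the 10 genes above. Of the 16, 0 were higher and 1 was lower with CNO at an unadjusted p under 0.05, against 1.44% and 2.65% of all genes. Their median log2 fold change was 0.10, and 0.11 without vehicle replicate 1. The 1 gene was the apelin precursor *Apln* (-0.28, SE 0.12, named after its values were seen). The most abundant were *Adm*, the precursor of adrenomedullin, with a mean of 14.4 TPM and a log2 fold change of 0.69 (SE 0.31), and *Pthlh*, which encodes a protein related to parathyroid hormone, with 13.9 TPM and 0.37 (SE 0.29). *Nucb2*, the precursor of nesfatin, had 11.1 TPM and a log2 fold change of -0.15, and *Nppc*, which encodes C-type natriuretic peptide, 9.13 TPM and -0.065.

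Of 22 genes for receptors of these peptides 17 were tested, of which 3 were higher and 14 lower with CNO. Their median log2 fold change was -0.18, and -0.12 without vehicle replicate 1. At an unadjusted p under 0.05 there were 2, both lower, a direction with 2.65% of all genes tested. They were the somatostatin receptor gene *Sstr1* (-0.32, SE 0.12) and the dynorphin receptor gene *Oprk1* (-0.44, SE 0.20), named after their values were seen. The most abundant was the cholecystokinin receptor gene *Cckbr*, at 52.7 TPM, with a log2 fold change of -0.087 (SE 0.11). The somatostatin receptor genes *Sstr4* and *Sstr2* had 20.9 and 16.8 TPM and log2 fold changes of -0.033 and -0.27 (SE 0.12 and 0.13). Of the receptor genes of somatostatin and cortistatin, *Sstr4* and *Sstr2* were thus among the most abundant on the list. *Sstr1*, *Sstr3* and *Sstr5* had 10.3, 8.98 and 0.286 TPM, the latter 2 genes named after their values were seen.

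All 23 genes of precursor processing and dense-core vesicle secretion were tested. Their summed level was 3741 to 3937 TPM with CNO and 3795 to 3905 TPM with vehicle, and the median log2 fold change was 0.074, or 0.0044 without vehicle replicate 1. With unadjusted p values under 0.05, 2 were higher, against 1.44% of all genes tested, and 3 were lower, against 2.65%. The higher 2 were the granin-like *Vgf* (0.58, SE 0.20) and *Scg2* (0.63, SE 0.22). The lower 3 were the convertase gene *Pcsk2* (-0.36, SE 0.13), *Cadps2* (-0.31, SE 0.13), which acts in vesicle priming, and the synaptotagmin gene *Syt10* (-0.59, SE 0.21). All 5 were named after their values were seen, and 0 of the 23 passed an adjusted p of 0.05 in edgeR's quasi-likelihood test. The most abundant were carboxypeptidase E (*Cpe*), at 1936 TPM with a log2 fold change of -0.041 (SE 0.11), and the convertase inhibitor precursor *Pcsk1n*, at 403 TPM with 0.22 (SE 0.21). *Scg5*, which encodes a chaperone of the convertase PCSK2, had 333 TPM and a log2 fold change of 0.20, and the granin *Chgb* 185 TPM and 0.26.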

How the data were processed

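Ribosome-bound RNA was sequenced in 8 samples, each a pool of 4 brains. Reads were trimmed with Trim Galore and aligned with STAR to GRCm38, and the authors deposited estimated counts per gene from Salmon, without normalization, and TPM. Versions were not given in the sources used here. Counts were rounded to whole numbers, genes with fewer than 10 counts in 4 or more samples were left out, and edgeR 4.0.16 (R 4.3.3) compared the groups by its quasi-likelihood test with TMM factors, adjusted by Benjamini-Hochberg over 17495 genes. Sample values are TMM-normalized CPM, and log2 CPM values carry a prior count of 2. Standard errors and 95% intervals come from the fitted coefficients. Levels of different genes were compared in deposited TPM. Alternatives included limma 3.58.1 on log2(TPM + 1) or log2(TPM + 0.1), DESeq2 1.42.0 and edgeR's robust dispersion with the likelihood ratio test. The statistics were also run on simulated counts, drawn from a common mean profile for all samples apart from genes given a set change. That simulation held no library low in PV+ interneuron markers, so it cannot show how the tests behave with one. Gene positions and exons came from GENCODE M21, which holds 45143 of the 45706 identifiers, and promoters from RefSeq.

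The 10 genes and all lists were chosen with earlier results of these data known, so no p was adjusted over a list alone. Genes were named by rule: the 10 genes, the 4 with the highest mean TPM on each pathway list and any past all cut-offs, the checks *Fos*, *Pvalb*, *Rpl10a*, *Gad1*, *Slc17a7* and *Ppp1r1b*, and the 3 nearest genes of each of the 10. Genes outside this rule were picked with their values known, as stated beside each.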

Additional observations from a re-analysis of the deposited data

Results flagged for a closer look

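For each of the 10 genes in log2 CPM, the distance of the lowest or highest sample of a group to its nearest neighbour was expressed as a ratio to the whole range of that group. Of the 20 groups tested, 1 exceeded Dixon's critical value, where chance gives about 1.0. It was *Crhbp* in the vehicle group, with a ratio of 0.992. Vehicle replicate 1 had 4.22 log2 CPM of *Crhbp*, and the other 3 vehicle samples had 5.50 to 5.51 log2 CPM. The same library had the lowest mean of the 16 PV+ interneuron markers, 6.06 log2 CPM against 7.24 to 7.45 log2 CPM in the other vehicle samples. The part of PV+ interneuron RNA content in this value was not tested.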

How the results depend on the processing

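Over 19 alternatives for each of the 10 log2 fold changes, 186 of 190 values kept their direction and their side of the threshold, which 0 of the 10 genes passed in any of them. The sign turned for *Sst* without vehicle replicate 1 (-0.029, with the log2 fold changes from leaving out each sample reaching up to 0.30), with the PV+ interneuron marker mean as a covariate (-0.0082) and with the striatal marker mean, added after seeing the data (-0.14), and for *Crh* without CNO replicate 4 (0.051, and as low as -0.21 without CNO replicate 1). The number of genes past the cut-offs among all tested was 0, and it was 12 by the likelihood ratio test with robust dispersion, 10 by DESeq2, 4 without a filter on low counts, 3 with a block of replicates 1 and 2 against 3 and 4, and 0 to 2 over the fits that omit 1 sample. The cause was not tested. By CPM 2 of 10 genes kept their rank, and without vehicle replicate 1, 11 of 30 nearest genes stayed.

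Samples with the same replicate number correlated in their deviations from the group means at 0.03, -0.03, 0.16 and 0.24, so the numbers were not taken to pair the samples. With the replicate block, 0 genes passed the cut-offs, and the log2 fold changes of *Cort*, *Crhbp* and *Penk* were 1.09, 0.73 and -0.69. *Tac1* had an unadjusted p of 0.0431 with this block at a log2 fold change of 0.49. In the quasi-likelihood test with a block of replicates 1 and 2 against 3 and 4, the unadjusted p of *Tac1* was 0.0192. Of the 19 alternatives, *Cort*, *Penk* and *Crhbp* had an unadjusted p under 0.05 in 19, 18 and 16. *Tac1* and *Cck* had one in 3 each, *Sst*, *Npy* and *Crh* in 1 each, and *Vip* and *Pdyn* in 0. *Crhbp* had an unadjusted p of 0.0584 without CNO replicate 1, 0.0525 without CNO replicate 4 and 0.10 with the striatal marker mean. With 4 pools a group, intervals of a change were widest for *Cort*, the member with the fewest counts.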
